A study of Mus musculus with 2 samples.

Results

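The enzymes that write, copy, read and remove methyl groups on cytosine were examined in 2 libraries of induced regulatory T (iTreg) cells, and 9 genes were chosen by name: the DNA methyltransferases *Dnmt1*, *Dnmt3a* and *Dnmt3b*, the cofactor *Uhrf1*, the dioxygenases *Tet1*, *Tet2* and *Tet3*, the methyl-CpG binding gene *Mbd2* and the glycosylase *Tdg*. Each of the 9 symbols had 1 row among the 23282 rows of the deposited tables. Naïve CD4+ T cells from the spleens of wild-type C57BL/6 mice, females aged 7 to 10 weeks, were activated through CD3 and CD28 and cultured for 1 day with TGF-β1, IL-2 and antibodies that block IFN-γ and IL-4. The control culture received DMSO and the TSA culture received 10 μM Tubastatin A, an inhibitor of the deacetylase HDAC6 that is called TSA here and is not Trichostatin A. There was 1 library per condition, so no test between conditions and no p-value was possible, and every difference given below is a difference between these 2 libraries without a replicate check. The labels and the methods do not say how many mice the cells came from or whether both cultures shared them, and iTreg cells made in culture are a mixture in which only part of the cells express Foxp3.

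Methylation of cytosine before guanine (CpG) silences many promoters and enhancers, and it must be copied each time DNA is replicated. UHRF1 recognises hemimethylated CpG behind the replication fork and recruits DNMT1, which restores methylation on the new strand, while DNMT3A and DNMT3B add methyl groups to unmethylated sites. TET enzymes use oxygen and 2-oxoglutarate to oxidise 5-methylcytosine, TDG excises the oxidised bases that base excision repair then replaces, and MBD2 binds methylated CpG and brings in the NuRD repressor complex. In Treg cells an intronic enhancer of *Foxp3* is demethylated with the help of TET enzymes, and its demethylation goes with stable expression, whereas in iTreg cells made in culture it stays largely methylated. None of the libraries measured DNA methylation itself.

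The libraries held 10846149 reads on genes (control) and 10432695 (TSA), recovered from the deposited log2 values as described in the section on processing. QuantSeq libraries read transcripts at their polyadenylated end, so the read number of a gene does not grow with its length and can be set beside that of another gene, although capture may differ between transcript ends. A count of 0 would allow up to 3 reads, which is 0.277 CPM (reads of a gene scaled to the same library total) for the control and 0.288 CPM for TSA. The T cell markers *Cd3d*, *Cd3e*, *Cd3g*, *Cd4*, *Cd5* and *Lck* had 602 to 4531 control reads and 794 to 4187 TSA reads. The 5 B cell markers had 0 to 11 control reads and 0 to 5 TSA reads, with *Pax5* at 0 in both. Among the 7 myeloid markers, *Cst3*, which many cell types express, had 742 and 757 reads and *Fcer1g* had 62 and 50, while the other 5 had 0 to 10 reads. *Cd8a* had 15 and 10 reads, *Cd8b1* had 65 and 77, *Klrb1c* had 0 in both, *Nkg7*, which activated T cells also express, had 889 and 1043, and the 4 red cell markers together had 43 and 58. Among these *Hbb-bs* had 4 and 17 reads, giving a fold of 3.57 (1.37 to 17.2), and *Hba-a1* had 28 and 28. The part of other cell types in the results was not tested. In bulk RNA, fewer cells of a kind and less RNA per cell cannot be told apart. *Hdac6*, the gene of the drug's target, had 146 and 166 reads, and since the drug acts on the protein its transcript does not check the labels.

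The genes of CpG methylation have mostly CpG-rich starts themselves, and the start regions of 4 of them are shown to let a reader compare them: *Dnmt1* and *Uhrf1*, which act together and whose transcripts were lower by nearly the same factor, and *Tet1* and *Tet2*, whose transcripts differed in opposite directions. Each sequence runs from 250 bases before to 50 bases after an annotated transcription start (RefSeq, GRCm38.p6), is written 5′ to 3′ on the strand of the gene, and has its CpG dinucleotides in capitals.
Dnmt1, chr9:20952930-20953229, minus strand: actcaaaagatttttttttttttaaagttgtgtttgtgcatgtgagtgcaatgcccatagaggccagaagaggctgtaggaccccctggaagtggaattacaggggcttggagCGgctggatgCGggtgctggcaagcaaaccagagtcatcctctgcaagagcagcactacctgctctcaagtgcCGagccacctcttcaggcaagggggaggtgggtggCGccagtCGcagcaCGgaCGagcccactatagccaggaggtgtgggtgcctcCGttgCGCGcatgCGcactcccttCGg
Uhrf1, chr17:56304063-56304362, plus strand: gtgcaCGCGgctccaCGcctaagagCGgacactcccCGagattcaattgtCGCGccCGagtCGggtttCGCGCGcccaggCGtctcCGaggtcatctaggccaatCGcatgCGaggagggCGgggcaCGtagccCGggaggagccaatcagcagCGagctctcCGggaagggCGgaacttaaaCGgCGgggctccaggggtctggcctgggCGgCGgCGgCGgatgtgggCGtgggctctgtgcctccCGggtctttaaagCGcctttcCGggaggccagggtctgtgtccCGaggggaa
Tet1, chr10:62887275-62887574, minus strand: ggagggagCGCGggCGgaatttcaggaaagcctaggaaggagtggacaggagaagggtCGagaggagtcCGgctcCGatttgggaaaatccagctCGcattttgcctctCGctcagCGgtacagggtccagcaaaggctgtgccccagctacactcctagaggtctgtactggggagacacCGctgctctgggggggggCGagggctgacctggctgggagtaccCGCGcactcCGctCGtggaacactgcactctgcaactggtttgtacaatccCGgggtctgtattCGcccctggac
Tet2, chr3:133544341-133544640, minus strand: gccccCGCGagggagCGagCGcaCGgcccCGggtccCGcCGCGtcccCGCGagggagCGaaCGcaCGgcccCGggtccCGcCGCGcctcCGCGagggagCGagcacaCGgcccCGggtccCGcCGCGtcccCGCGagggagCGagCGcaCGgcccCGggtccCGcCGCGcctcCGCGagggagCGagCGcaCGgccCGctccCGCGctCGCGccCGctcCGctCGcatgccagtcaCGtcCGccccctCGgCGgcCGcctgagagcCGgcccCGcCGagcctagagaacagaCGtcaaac
*Tet1* and *Tet2* have 1 window each in the table, with 17 and 57 CpG dinucleotides. *Uhrf1* has 2, with 12 and 33, and the second is printed. *Dnmt1* has 3, with 2, 12 and 33. The one with 12 is printed because the one with 33 overlaps the first exon of another annotated *Dnmt1* transcript, so the printed letters do not stand for all starts of the gene. Among all start regions, those of 8 of the 9 genes were examined, with 13 windows because *Dnmt1*, *Dnmt3a* and *Uhrf1* have several starts. No start region of *Mbd2* was examined, so nothing is said here about its start. These 13 windows held 2 to 57 CpG dinucleotides with a median of 26, against a median of 7 over all 32851 windows, and 99.8% of all windows held fewer than that of *Tet2*. E2F-type motifs, which occur at many genes of DNA replication, were searched on both strands as the words TTTCGCGC, TTTGGCGC, TTTCCCGC and TTTGCCGC, which can overlap on opposite strands. They were found in 2 of the 13 windows, 1 of *Uhrf1* (the printed one, from position -185 relative to the start) and the unprinted *Dnmt1* window with 33 CpG, which holds 2 matches, and in 2.26% of all windows. The word CCAAT was found in 6 of the 13 windows and in 37.4% of all, and the GC box GGGCGG in 10 of the 13 and in 35.7% of all, again on both strands. These are matches of letters and not measured binding sites, and reads at transcript ends do not tell which start was used.

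All 9 genes had at least 10 reads in a library and were among the 12164 genes tested. The TSA library held fewer reads of most of them. For 5 of the 9 genes, *Dnmt1*, *Dnmt3a*, *Uhrf1*, *Tet2* and *Tet3*, the exact 95% Clopper-Pearson interval of the fold change (TSA over control) lay below no change. *Tet1* was the only member with an interval above no change and the only member past the 2-fold threshold of the study. For *Dnmt3b*, *Mbd2* and *Tdg* the interval included no change. Over all genes tested, 28.0% had an interval below no change and 28.1% had an interval above it. These shares differ with depth, and for the genes that averaged 100 or more normalized counts they were 36.5% below and 23.4% above, to be read beside 5 below and 0 above among the 7 members at that level. Past 2-fold, 11.5% of all genes tested were higher and 3.15% were lower in the TSA library, against 1 and 0 of the 9 members. The balance of all genes depends on how the libraries are scaled: 3407 genes lay below and 3416 above as deposited, and 2504 below and 4242 above when total reads without the ribosomal RNA precursor *Rn45s* were made equal, where 4 members lay below and 1 above and the interval of *Tet3* reached 1.01. The median log2 fold change was -0.25 over the members, which is the value of *Tdg* with 12 and 10 reads. It was 0.015 over all genes tested and -0.04 over genes that averaged 50 or more normalized counts. The intervals compare the reads of the 2 libraries and cover counting error only, since copies made by PCR could not be told from other reads.

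**Figure D1:**
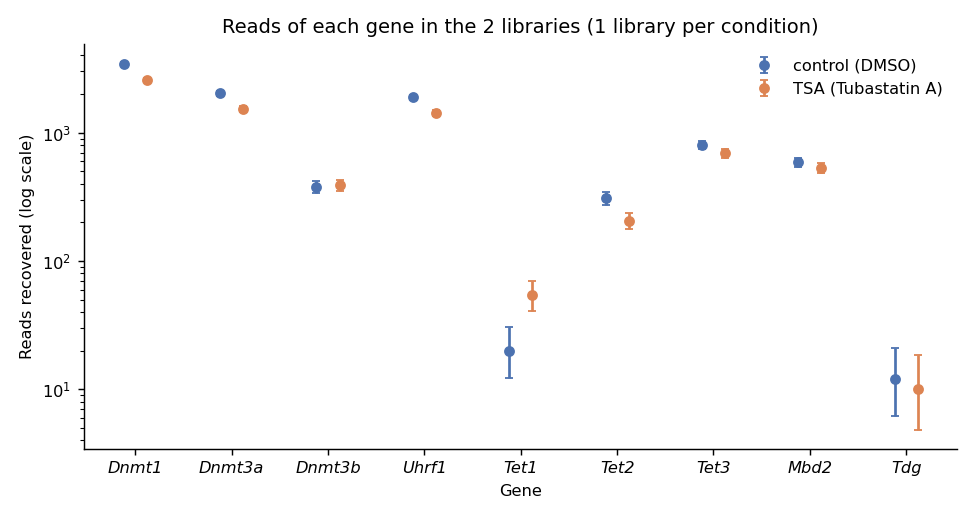
Reads recovered for each of the 9 genes (log scale) in the control library (blue) and the TSA library (orange), with exact 95% Poisson intervals as bars and 1 library per condition. *Dnmt1* sits highest (3412 and 2579 reads), *Tet1* is the gene whose TSA point lies above its control point beyond both intervals (20 and 54 reads), and *Tdg* rests on 12 and 10 reads.

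The order of the 9 genes by reads was the same in both libraries. *Dnmt1* led with 315 CPM (control) and 247 CPM (TSA), followed by *Dnmt3a*, *Uhrf1*, *Tet3*, *Mbd2*, *Dnmt3b*, *Tet2*, *Tet1* and *Tdg*, which had 1.11 and 0.959 CPM. Neighbours in this order were compared by the share of the higher gene in the reads of both, with an exact 95% interval. The share included equal reads for *Dnmt3a* and *Uhrf1* under TSA (51.8%, 49.9% to 53.6%) and only just excluded them in the control (51.7%, 50.1% to 53.3%). It also included equal reads for *Tet1* and *Tdg* in the control (62.5%, 43.7% to 78.9%), but not under TSA (84.4%, 73.1% to 92.2%). The other neighbours differed beyond counting error in both libraries, the closest being *Dnmt3b* and *Tet2* in the control (55.2%, 51.4% to 58.9%).

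Maintenance of methylation was represented by *Dnmt1* and *Uhrf1*. *Dnmt1* (chromosome 9, from 20907209 to 20959888, GENCODE M21 on GRCm38) had 3412 control reads and 2579 TSA reads, at deposited log2 values of 11.74 and 11.33. The TSA level was thus the lower by more than counting error, at a fold change of 0.748 (95% interval 0.711 to 0.788). *Uhrf1* (chromosome 17, from 56303321 to 56323486) had 1887 and 1419 reads, at log2 values of 10.89 and 10.46, and a fold change of 0.745 (0.695 to 0.798). The partners therefore lay at nearly the same fold change. The ratio of *Dnmt1* to *Uhrf1* reads, which does not depend on how the libraries are scaled, was 1.81 (control) and 1.82 (TSA), and the ratio of these ratios was 1.01 (exact conditional 95% interval 0.922 to 1.10).

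The methyltransferases that act on unmethylated sites differed from each other. *Dnmt3a* (chromosome 12, from 3806007 to 3914443) had 2021 control reads and 1523 TSA reads, a fold of 0.746 (0.698 to 0.798), beside those of *Dnmt1* and *Uhrf1*. *Dnmt3b* (chromosome 2, from 153649450 to 153687730) had 379 and 389 reads, giving a fold of 1.02 with an interval of 0.88 to 1.17, and a change within that range was not detectable at this depth. The ratio of *Dnmt1* to *Dnmt3b* reads went from 9.0 to 6.63, a ratio of ratios of 0.736 (0.632 to 0.858), so these methyltransferases differed from each other by more than counting error. Of all reads of the 3 DNMT genes, *Dnmt3b* held 6.52% in the control library (exact 95% interval 5.90% to 7.19%) and 8.66% in the TSA library (7.86% to 9.52%), and these intervals do not overlap. The share of *Dnmt1* was 58.7% and 57.4%, and that of *Dnmt3a* 34.8% and 33.9%, with overlapping intervals. Reads at the transcript end do not separate the long and short forms of *Dnmt3a* or the catalytic and inactive splice forms of *Dnmt3b* where these share their ends.

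The 3 TET genes did not move together. *Tet3* (chromosome 6, from 83362373 to 83459084) was the most abundant, with 797 control reads and 689 TSA reads and a fold change of 0.856 (0.772 to 0.949). *Tet2* (chromosome 3, from 133463679 to 133545139) had 308 and 206 reads, giving a fold of 0.663 (0.552 to 0.793), the lowest of the 9 genes. *Tet1* (chromosome 10, from 62804570 to 62908996) had 20 and 54 reads, giving a fold of 2.59 (1.57 to 4.72), so that it was higher in the TSA library at a level close to the lower end of what was counted. Higher values were common at that level: of the genes that averaged 20 to under 100 normalized counts, 18.6% were past 2-fold and higher in the TSA library, and 10.6% had a log2 fold change as high as that of *Tet1* or higher. For *Tet2*, 7.03% of the genes that averaged 100 to under 500 had a log2 fold change as low or lower, and for *Dnmt1* the figure among genes at 500 or more was 12.2%.

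**Figure D2:**
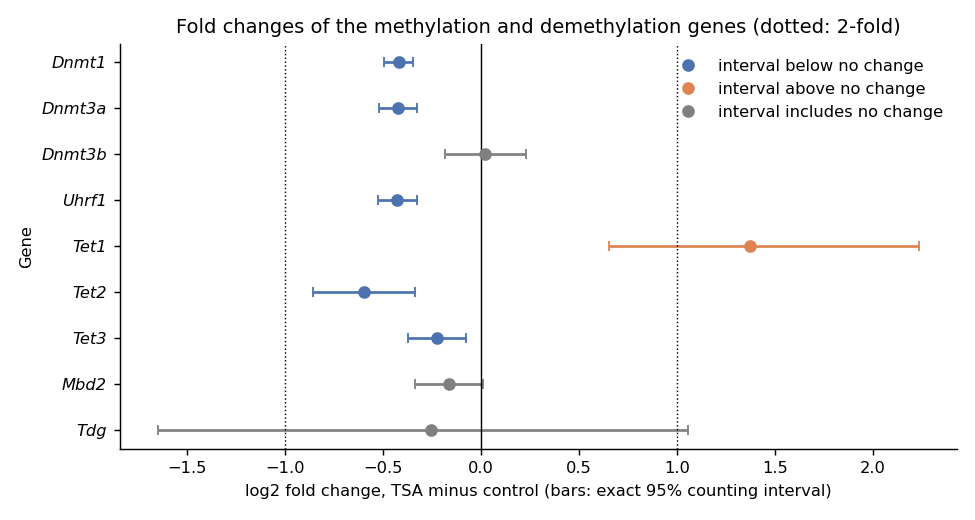
log2 fold change of each gene (TSA minus control) with its exact 95% counting interval, colored by whether the interval lies below no change (blue), above it (orange) or includes it (grey), with dotted lines at 2-fold. *Dnmt1*, *Dnmt3a* and *Uhrf1* line up at -0.42 to -0.43, *Tet2* lies at -0.59 and *Tet1* at 1.38.

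Within the TET family the mixture of transcripts shifted. *Tet1* held 1.78% of the control TET reads (1.09% to 2.73%) and 5.69% of those under TSA (4.30% to 7.36%). *Tet2* held 27.4% (24.8% to 30.1%) and 21.7% (19.1% to 24.5%), and *Tet3* held 70.8% (68.1% to 73.5%) and 72.6% (69.6% to 75.4%). The shares of *Tet1* and *Tet2* thus lay outside each other's intervals, in opposite directions, and those of *Tet3* did not. The ratio of *Tet1* to *Tet2* reads was 0.0649 (control) and 0.262 (TSA), a ratio of ratios of 4.03 (2.29 to 7.33). Because *Tet1* is scarce, the sum over the family followed the other members, with 1125 control reads and 949 TSA reads and a fold change of 0.835 (0.765 to 0.911). For the DNMT family the sums were 5812 and 4491 reads, giving a fold of 0.765 (0.736 to 0.796).

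**Figure D3:**
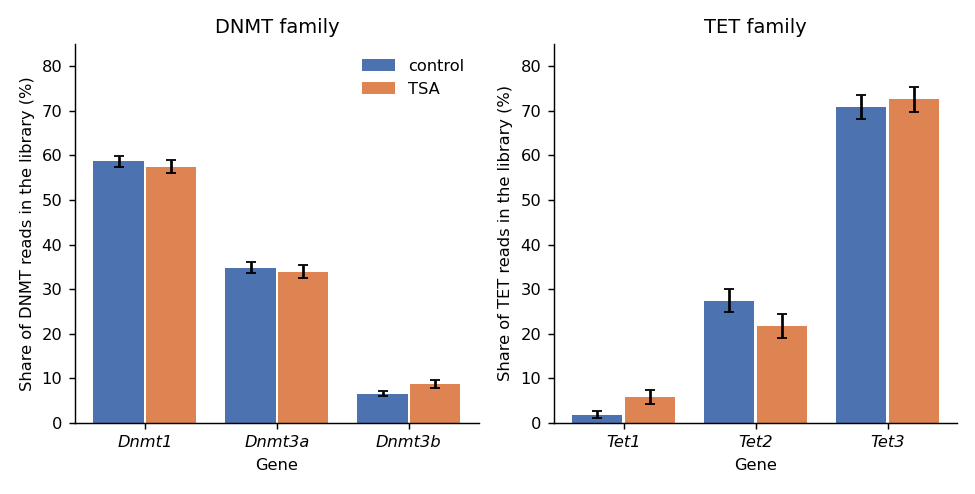
Share of each gene among the reads of its family in the control (blue) and TSA (orange) libraries, in percent, with exact 95% binomial intervals as error bars. *Dnmt3b* goes from 6.52% to 8.66% of DNMT reads and *Tet1* from 1.78% to 5.69% of TET reads, while *Tet2* goes from 27.4% to 21.7%.

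The reader *Mbd2* (chromosome 18, from 70568189 to 70626131) had 589 control reads and 532 TSA reads, a fold of 0.894 whose interval of 0.794 to 1.01 just included no change. The glycosylase *Tdg* (chromosome 10, from 82629828 to 82650799) had 12 and 10 reads, and its fold change of 0.839 with an interval of 0.319 to 2.08 means that a difference was not detectable at this depth. The *Tdg* value is also uncertain for another reason. An annotated *Tdg* transcript of 2959 bases ends in a stretch that its processed pseudogene *Tdg-ps* copies with 99.2% identity over 497 aligned bases, and 245 of the 426 possible 75-base reads from its last 500 bases occur unchanged in the pseudogene. The tables have no row named *Tdg-ps*, and how reads that fit several places were counted is not given in the sources used here. The end of a longer *Tdg* transcript (3502 bases) shares none of its 426 windows with another annotated transcript but overlaps *Glt8d2* on the opposite strand. The ends of the other 8 genes shared no 75-base window with any other annotated gene. Overlap was examined at the end of the longest transcript of each gene, and for these 8 it held no exon of another gene.

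Relations between the genes within a library were compared for all 36 pairs of members. The ratio of ratios had a 95% interval that excluded 1 for 20 pairs, and for 11 pairs when each interval was widened to hold jointly over the 36. These pairs reuse the same genes and are not independent. No share over pairs of other genes was computed, so the counts do not set the members apart from other genes. *Tet1* was in 8 pairs, of which 8 excluded 1 at the 95% level and 7 at the wider level. The 3 pairs among *Dnmt1*, *Dnmt3a* and *Uhrf1* all included 1. At the wider level, *Dnmt3b* also differed from *Dnmt1*, *Dnmt3a*, *Uhrf1* and *Tet2*.

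**Figure D4:**
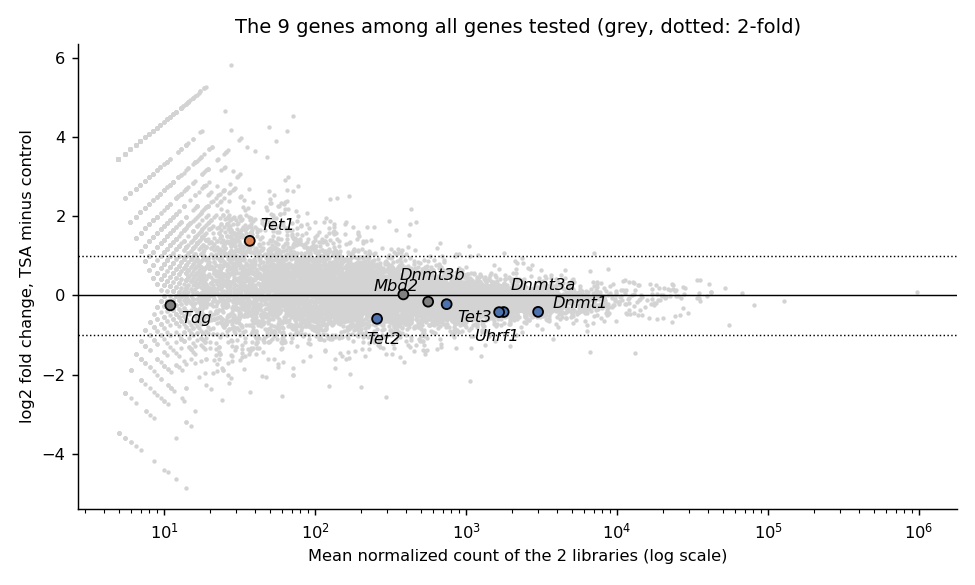
log2 fold change (TSA minus control) against the mean normalized count of the libraries (log scale) for all 12164 genes tested (grey), with the 9 members marked by the color of their interval (blue below, orange above, grey including no change) and dotted lines at 2-fold. *Tet1* lies above the 2-fold line in the range where many genes scatter upward, and the abundant members lie between the dotted lines.

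Because maintenance methylation follows replication, the members were set beside genes of S phase. All 24 replication genes listed were tested, 24 had a log2 fold change below 0, and 21 (87.5%) had an interval below no change, against 36.5% of the genes that averaged 100 or more normalized counts, as all 24 did. Their median log2 fold change was -0.34. *Rrm2*, a subunit of ribonucleotide reductase, had 2141 and 978 reads (fold change 0.453) and *Ccne2*, a cyclin of S-phase entry, had 1882 and 797 (0.4196), the only members of this list past 2-fold. *Lig1*, which joins Okazaki fragments, had 11843 and 7669 reads (0.641), and *Mcm7*, a subunit of the replicative helicase, had 8845 and 7136 (0.799). *Pcna*, the sliding clamp to which DNMT1 binds at the fork, had 3627 and 2724 reads, giving a fold of 0.744 (0.707 to 0.782). The ratio of *Dnmt1* to *Pcna* reads was 0.941 (control) and 0.947 (TSA), and the ratio of *Uhrf1* to *Pcna* was 0.5203 and 0.5209. The ratio of *Dnmt3a* to *Pcna* was likewise close in both (0.557 and 0.559), whereas *Dnmt3b* went from 0.104 to 0.143, a ratio of ratios of 1.37 (1.17 to 1.59). Against *Pcna*, intervals also lay above 1 for *Tet3* (1.15, 1.03 to 1.29), *Mbd2* (1.20, 1.06 to 1.37) and *Tet1* (3.59, 2.11 to 6.36). Those of *Tet2* and *Tdg* included 1. Fold changes in the S-phase list ran from 0.4196 to 0.987, and ratios to its genes other than *Pcna* were not computed. Against *Mki67*, a marker of dividing cells with 1861 and 653 reads, all members had a higher ratio in the TSA library, from 1.91 times for *Tet2* to 7.69 times for *Tet1*, with intervals above 1 except for *Tdg*. *Mki67* itself had a fold of 0.348, and 3.15% of all genes tested were past 2-fold and lower. A higher ratio to *Mki67* is therefore common to most genes and not particular to the members. The part of cell cycle state in the results on the members was not tested.

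Among 17 partners of the DNA methyltransferases, all found in the tables (3 of them under older symbols), 14 were tested, 0 passed 2-fold and 6 (42.9%) had an interval below no change, with 0 above, and the median log2 fold change was -0.14. Of the 11 that averaged 100 or more normalized counts, 6 lay below (54.5%) and 0 above, beside 36.5% and 23.4% of all genes at that level. With total reads without *Rn45s* made equal, the alternative scaling in what follows, 20.6% of all genes tested lay below and 34.9% above, and the partners had 4 below, 0 above and a median of -0.06. The shares at 100 or more were not computed under that scaling, so this background is not matched for depth. The 2 with the most reads summed over both libraries were *Trim28*, a corepressor that protects methylation at imprinted genes and retroelements, with 5843 and 4414 reads (0.748, 0.719 to 0.778), and *Hells*, a chromatin remodeler needed for DNA methylation, with 3711 and 2758 reads (0.736, 0.7003 to 0.773). Both thus had values beside those of *Dnmt1* and *Uhrf1*. *Uhrf2*, the paralog of *Uhrf1*, had 410 and 411 reads, giving a fold of 0.992 (0.864 to 1.14), and was named after its values were seen. Of 14 methyl-CpG readers and NuRD subunits, all tested, 0 passed 2-fold, 6 (42.9%) had an interval below no change and 1 above, with a median of -0.14. Of the 13 at 100 or more, 6 lay below (46.2%) and 1 above (7.69%), beside the same 36.5% and 23.4%, and under the alternative scaling the 14 genes had 4 below, 1 above and a median of -0.06. *Chd4*, the NuRD ATPase, had 6588 and 5300 reads (0.797) and *Gatad2a*, another NuRD subunit, 1743 and 1489 (0.846).

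Of 18 genes of active demethylation and base excision repair, 14 were tested, 2 were past 2-fold and higher, and intervals lay above no change for 4 genes (28.6%) and below it for 2 (14.3%), with a median of 0.11. Of all genes tested, 11.5% were past 2-fold and higher, 28.1% had an interval above no change and 28.0% below. Of the 10 genes of the list that averaged 100 or more, 3 lay above (30%) and 2 below (20%), beside 23.4% and 36.5%. Under the alternative scaling 6 of the 14 lay above and 1 below, with a median of 0.19. *Cxxc5*, which encodes a CXXC zinc finger protein that binds unmethylated CpG, had 20 control reads and 107 TSA reads, a fold of 5.09 (3.27 to 9.02), the largest among the tested genes of these lists. *Gadd45a*, a stress gene linked to demethylation, had 5 and 13 reads, and its interval of 0.861 to 9.22 included no change. It was tested through its TSA reads alone, a filter that favours a higher value, and with 10 reads or more required in both libraries *Cxxc5* was the only gene of the list past 2-fold. Its relatives had more reads and were named after their values were seen. *Gadd45g* had 272 and 513 reads, giving a fold of 1.86 (1.61 to 2.17), and *Gadd45b* had 596 and 806 reads, giving a fold of 1.34 (1.20 to 1.49). The most abundant genes of the list were *Ung*, the uracil glycosylase, with 3417 and 3630 reads (1.05), and *Parp1*, a sensor of strand breaks, with 2155 and 2100 (0.965).

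The methyl group comes from S-adenosylmethionine, and of 13 genes listed around its supply, all tested, 9 (69.2%) had an interval below no change, 1 had an interval above it and 0 passed 2-fold. Of the 12 that averaged 100 or more, 9 lay below and 0 above, beside 36.5% and 23.4%. The median log2 fold change of these 13 genes was -0.23, and under the alternative scaling it was -0.15 with 8 below and 1 above. The list also holds *Ahcyl1* and *Ahcyl2*, relatives of the hydrolase *Ahcy* known as regulators of calcium release rather than of this supply, and *Ahcyl1* is among the 9 (0.815), a remark made after the values were seen. *Mat2a*, the enzyme that makes S-adenosylmethionine, had 7928 and 6812 reads (0.851, 0.824 to 0.879), and *Mthfd2*, of mitochondrial folate metabolism, had 3634 and 3125 (0.851). Of 9 genes around 2-oxoglutarate, which TET enzymes consume, 2 (22.2%) had an interval above no change and 1 (11.1%) below it, against 28.1% and 28.0% of all genes tested, 0 passed 2-fold and the median was 0.0090. Under the alternative scaling 4 of the 9 lay above and 1 below, with a median of 0.09. *Got2* had 3559 and 3972 reads (1.10) and *Glud1* 1587 and 1557 (0.971). Of 6 Treg genes known to have demethylated regions in Treg cells, 4 (66.7%) had an interval below no change, against 36.5% of the genes that averaged 100 or more, and the median was -0.22, against 3 below and a median of -0.13 under the alternative scaling. The interval of 1 gene lay above, *Tnfrsf18*, with 3228 and 3912 reads, while *Il2ra* had 8851 and 7512 reads (0.8403) and *Foxp3* had 1633 and 965 (0.586).

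**Figure D5:**
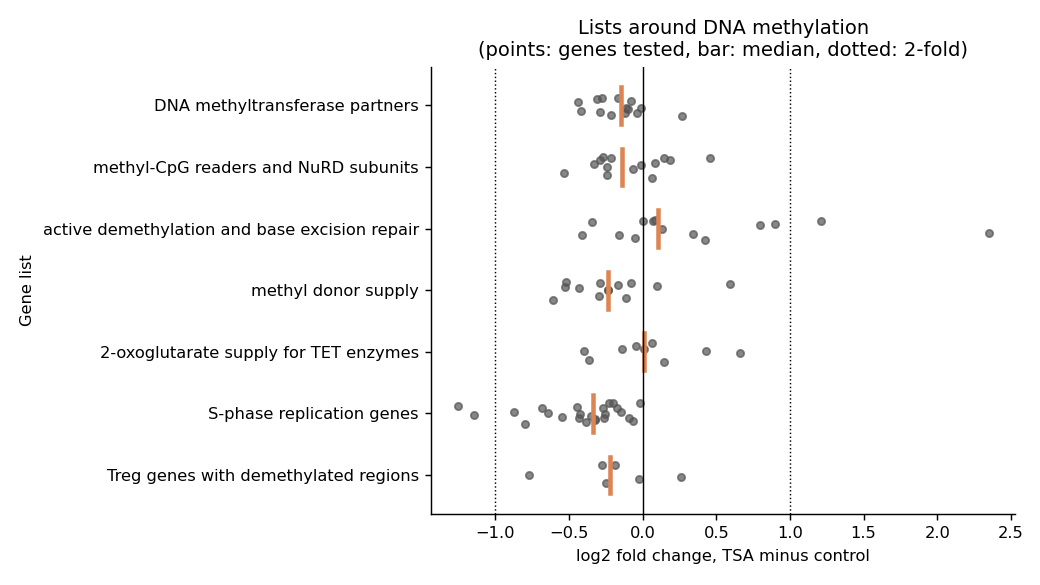
log2 fold change (TSA minus control) of every tested gene (points) in 7 gene lists around DNA methylation, with the median of each list as a bar and dotted lines at 2-fold. The median is -0.34 for S-phase replication genes and 0.11 for active demethylation and base excision repair, where *Cxxc5* is the point farthest to the right.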

How the data were processed

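Total RNA from 1 control and 1 TSA culture was sequenced by the authors from QuantSeq libraries (single-end, 75 nt, NextSeq 500) and analysed with ExDEGA. The submitters' processing notes name Bowtie2, bedtools and mm10, and the annotation, the counting rules and the normalization are not given in the sources used here. The deposited values are log2 of a normalized count plus 1. Taken out of the log2 scale they fell on multiples of 1.005 (control) and 0.995 (TSA) per read, and 99.95% and 99.9% of the values of 1 to 300 reads lay within 0.1 of a whole number. At higher values, rounding of the deposited decimals limits the reads to within 0.0347%. A further 1940 control rows that hold no read carry a value slightly above 0 and were taken as 0.

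The log2 fold change is the deposited TSA value minus the control value, which holds a pseudocount of 1. A gene was tested, that is, compared, when either library held 10 or more of its reads, which left 12164 genes. It was called past 2-fold by the study's threshold. Intervals are exact (Clopper-Pearson for folds and shares, Poisson for reads, conditional for ratios of ratios) and cover counting error only. The members and gene lists were chosen with earlier results of these data known. Named genes are the members, the genes of each list past 2-fold, the 2 with the most reads summed over both libraries in each list, *Pcna*, *Mki67*, *Foxp3* and *Hdac6*. *Uhrf2*, *Gadd45b* and *Gadd45g* fall outside this rule and were chosen after their values were seen, *Rn45s* is named for the scaling, and markers are named for the check of cell type. List genes were matched to older symbols through RefSeq. The steps were tested on simulated data. Alternatives covered scaling, pseudocount, filter and threshold. Python 3.11.15, numpy 2.4.6, scipy 1.17.1 and pandas 2.3.3 were used.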

Additional observations from a re-analysis of the deposited data

How the results depend on the processing

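No paired analysis was possible because each condition has a single library, which also means that none could be left out. Of 209 alternative values for 24 results, 199 stayed within a tolerance and 0 reversed: the counting interval for the fold change of a member, 1.5 times for a count and, for the median of a list, the median half-width of its genes' intervals. The log2 fold change of *Dnmt1* was -0.33 after scaling by total reads without *Rn45s*. That scaling gave 4 in place of 5 members with an interval below no change, because the upper bound of *Tet3* became 1.01, and the median of all genes tested moved from 0.015 to 0.099. Among genes averaging 50 or more normalized counts, 0 members were past 2-fold and higher and 0 had an interval above no change, because *Tet1* was no longer tested. With a 1.5-fold threshold 1 member, *Tet2*, was lower. Of the genes in the 6 lists from partners to S phase, 2 were past 2-fold and higher. The number was 1 with a pseudocount of 5, with 10 reads or more in both libraries and with an average of 50 or more normalized counts, 4 without a filter and 6 with a 1.5-fold threshold, where 7 in place of 2 were lower. *Tet1* had a log2 fold change of 1.23 to 1.46 and *Tet2* of -0.59 to -0.51 over the scalings and pseudocounts. Depth limits *Tdg* and *Tet1*. Over all genes tested, 1400 were past 2-fold and higher and 383 were lower. These numbers were 2817 and 1200 without a filter, 524 and 223 with 10 reads or more in both libraries, 278 and 141 with an average of 50 or more, and 2279 and 1014 past 1.5-fold. The list medians stayed within their wide tolerance, yet moved with total reads without *Rn45s* made equal, as given beside each list. S phase then had 19 genes below no change and a median of -0.25, where 20.6% of all genes tested lay below, a share not matched for depth. Among genes averaging 50 or more, the medians of the readers and of 2-oxoglutarate were -0.07 and 0.06.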
